A study of Mus musculus with 6 samples.

Results

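The 31 genes described here encode proteins that detect damaged or stalled DNA, halt the cell cycle in response, and repair the damage. They are Atm, Atr, Nbn, Topbp1, Chek1, Chek2, Clspn, Timeless, Tipin, Brca1, Bard1, Brip1, Palb2, Brca2, Rad51c, Xrcc2, Rad51ap1, Rad54l, Fanca, Fancb, Fance, Fancg, Fancd2, Fanci, Exo1, Blm, Rmi1, Atad5, Dscc1, Msh6 and Rad18. Their rows were taken by gene symbol, and each was found once in the deposited table of 24062 genes. All 31 passed the filter on low counts and were among the 14090 genes tested. RNA-seq was made from C57BL/6 mouse embryonic fibroblasts, which are connective tissue cells grown out of embryos. In p27 OE (3 libraries), a lentivirus drove overexpression of p27, an inhibitor of cyclin-dependent kinases encoded by Cdkn1b, and RNA was taken on day 4, when the cells had not yet become senescent according to the labels. EV control (3 libraries) was the comparison group of the same cells, strain and day, and the labels do not spell out EV. The libraries of each group are numbered 1 to 3. The labels do not say that they came from separate cultures, so p-values measure only the spread between these libraries, which may be technical in part. The comparison asks what p27 overexpression does to expression before senescence begins.

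In the DNA damage checkpoint, the kinases ATM and ATR are recruited to broken or single-stranded DNA and phosphorylate CHEK2 and CHEK1, which hold back the cyclin-dependent kinases. Homologous recombination copies an intact sister chromatid to mend a break, with BRCA1, PALB2 and BRCA2 acting together at the resected ends. The Fanconi anaemia proteins attach ubiquitin to FANCD2 and FANCI at DNA crosslinks, and many genes of these pathways are transcribed mainly in proliferating cells, in late G1 and S phase.

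Cdkn1b measured 419, 978 and 460.0 CPM (read counts scaled by library size with the TMM method) in p27 OE 1, 2 and 3, against 52.2, 49.9 and 51.2 CPM in EV control 1, 2 and 3. Its log2 fold change was 3.60 ± 0.35 (SE) and every p27 OE library lay above every EV control library, although its adjusted p was 0.180 by edgeR's quasi-likelihood test and 0.0873 when libraries were paired by number. The 6 libraries held 34920728 to 52098220 counts assigned to genes. In both groups the library numbered 1 was set apart: the first principal component of log2 CPM, with 58.9% of the variance, separated p27 OE 1 and EV control 1 from the other 4, and the second, with 17.2%, separated p27 OE from EV control. Xist, the RNA of the inactive X chromosome, measured 477 CPM in p27 OE 1 and 317 CPM in EV control 1. It measured 9.57 and 5.93 CPM in p27 OE 2 and EV control 2, and 0.504 and 0.601 CPM in p27 OE 3 and EV control 3. The Y-linked gene Ddx3y measured 0.0220 CPM in p27 OE 1 and 0.0556 CPM in EV control 1, and at least 54.3 CPM in the others. Markers of fibroblasts summed to 57513 to 64096 CPM per library. Of the defining markers of other lineages, 3 of 6 endothelial, 4 of 6 epithelial, 3 of 6 skeletal muscle and 2 of 6 neural genes were under 1 CPM in every library. Summed macrophage markers measured 43.1, 78.9 and 55.4 CPM in the p27 OE libraries, against 45.2, 56.6 and 57.9 CPM in EV control, and summed skeletal muscle markers measured 51.7, 117 and 135 CPM in the p27 OE libraries, against 21.2, 49.7 and 51.2 CPM in EV control. Summed neural markers measured 90.4, 71.0 and 76.1 CPM in p27 OE 1, 2 and 3, against 75.3, 51.5 and 55.1 CPM in EV control. Epithelial markers summed to 9.69, 9.44 and 9.41 CPM, against 12.1, 10.6 and 12.0 CPM, and endothelial to 5.29, 4.80 and 5.17 CPM, against 4.57, 2.94 and 3.46 CPM. The part of these markers in the results on repair genes was not tested. In bulk RNA, a smaller share of cells expressing a gene and less of its RNA per cell cannot be told apart.

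None of the 31 genes passed the test between p27 OE and EV control in the fit without pairing, where the share of all genes called was also 0.0%. At an unadjusted p under 0.05, 1 of the 31 passed (3.23%, against 7.22% of all genes tested), and neither DESeq2 nor limma-voom called a member without pairing; of all genes, DESeq2 called 89 and limma-voom 0. When the libraries were paired by number, 1 gene was called, the checkpoint kinase gene Atr, which rose in p27 OE. The share of all genes called higher in p27 OE in that paired fit was 3.8%, and 3.63% were called lower. In either direction, 3.23% of members were called, against 7.43% of all genes, and 0 members were called lower. The differences were small. The log2 fold changes of the 31 genes without pairing ranged from -0.30 for Fancg to 0.37 for Clspn, with a median of 0.05 against -0.00 over all genes tested, and 20 of 31 lay above 0 (64.5%, against 49.7% of all genes). The median size of the fold change, regardless of sign, was 0.08 on the log2 scale for the members and 0.12 for all genes.

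**Figure D1:**
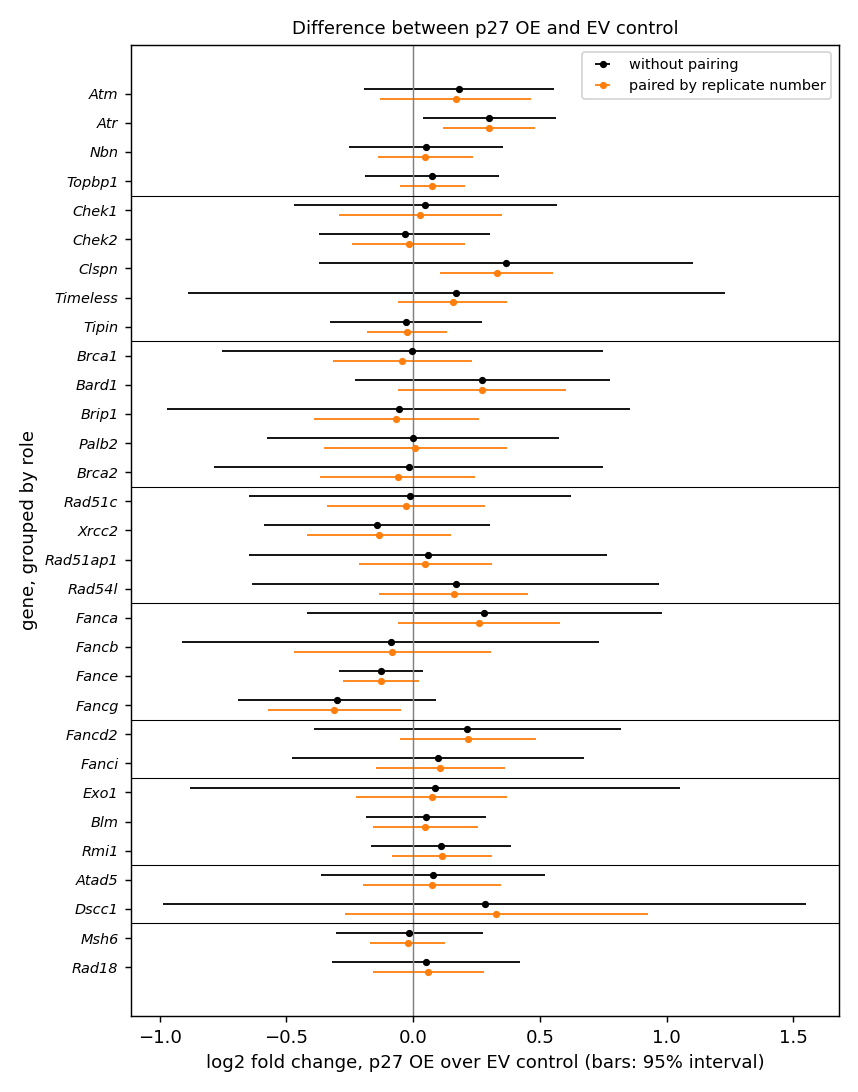
Log2 fold change of each gene, p27 OE over EV control (horizontal axis), with its 95% interval as a bar, without pairing (black) and paired by library number (orange), for the 31 genes grouped by role. The paired bars are shorter for most genes, and the paired bars of 3 genes, Atr, Clspn and Fancg, leave out 0 (9.68% of members, against 23.9% of all genes, at an unadjusted paired p under 0.05).

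The intervals bound what could have been missed. Without pairing, the 95% interval of 27 of 31 genes stayed within a 2-fold difference in either direction (87.1%, against 79.7% of all genes). The exceptions were Clspn, Timeless, Exo1 and Dscc1. With pairing, the intervals of 31 of 31 stayed within 2-fold (against 88.6% of all genes). Those of 29 of 31 stayed within 1.5-fold (93.5%, against 75.8% of all genes), all but Bard1 and Dscc1. The paired intervals hold only if the numbers do pair the libraries, which the labels do not say. The median standard error of the members' log2 fold change was 0.22 without pairing and 0.12 with it, against 0.14 and 0.08 over all genes, and the members' median level of 8.08 CPM was below the 21.9 CPM of all genes.

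Among the sensors and transducers, all 4 genes had a log2 fold change above 0, with a median of 0.13. Atr, the kinase gene that answers single-stranded DNA at stalled forks, measured 22.1, 17.8 and 19.2 CPM in p27 OE 1, 2 and 3, against 16.9, 15.8 and 15.3 CPM in EV control 1, 2 and 3. All 3 p27 OE libraries lay above all 3 EV control libraries, and the member of each numbered pair from p27 OE was the higher. The log2 fold change was 0.30 ± 0.11 (SE) without pairing, with an adjusted p of 0.683 by edgeR, and 0.30 ± 0.08 with pairing, with an adjusted p of 0.0465. The paired call was near its threshold: the adjusted p was 0.103 without the libraries numbered 1 and 0.271 without those numbered 3. Atr lies on the plus strand at chr9:95857597-95951781 (mm10), and 187 bases of its exons, 2.28%, overlap exons of 1700065D16Rik on the opposite strand, a gene at 0 CPM. Atm, the kinase gene that answers double-strand breaks, averaged 24.1 ± 5.22 CPM in p27 OE and 21.2 ± 1.15 CPM in EV control (SD, n = 3 each), and 1 library, p27 OE 1 at 30.03 CPM, stood above the others, which lay between 20.2 and 22.4 CPM. Topbp1, the gene of the scaffold that activates ATR, was the most abundant member, at 84.9 ± 7.44 CPM in p27 OE and 80.7 ± 9.80 CPM in EV control (SD, n = 3 each). Nbn, which encodes a subunit of the break-sensing MRN complex, had a log2 fold change of 0.05 ± 0.13.

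Of the checkpoint mediators and effector kinases, 3 of 5 had a log2 fold change above 0. Clspn encodes claspin, the mediator through which ATR activates CHEK1. It measured 23.1, 10.8 and 13.6 CPM in p27 OE 1, 2 and 3, against 15.6, 10.0 and 11.3 CPM in EV control 1, 2 and 3. The groups overlapped, and the library numbered 1 was the highest in each. Its log2 fold change was 0.37 ± 0.31 without pairing (adjusted p 0.860) and 0.33 ± 0.10 with pairing (adjusted p 0.0684, both by edgeR). Leaving out p27 OE 1 alone brought the unpaired value to -0.01. Paired and with both libraries numbered 2 left out, Clspn was called higher, at 0.43 and an adjusted p of 0.00875 by edgeR. That fit called 928 of 14319 genes (503 higher) and 3 of the 31 members. Dropping the libraries numbered 1 gave a paired value of 0.19 (adjusted p 0.317), and dropping those numbered 3 gave 0.36 (adjusted p 0.217). Chek1, the kinase gene downstream of ATR, had a log2 fold change of 0.05 ± 0.22, and Chek2, the kinase gene downstream of ATM, one of -0.03 ± 0.14. Chek2, whose library values are given although chosen after they were seen, held between 14.79 and 14.98 CPM in the 3 p27 OE libraries. It measured 12.2, 16.8 and 16.7 CPM in EV control 1, 2 and 3. Timeless and Tipin encode partners in the complex that protects stalled forks, and their log2 fold changes were 0.17 ± 0.44 and -0.03 ± 0.13. Chosen after its values were seen, Timeless measured 21.9, 8.77 and 10.5 CPM in p27 OE 1, 2 and 3, against 18.9, 9.13 and 8.61 CPM in EV control 1, 2 and 3. The libraries numbered 1 exceeded the rest in both groups, by far more than p27 OE and EV control differed within a number.

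The genes of the BRCA complexes had a median log2 fold change of -0.00, with 2 of 5 above 0. Bard1, which encodes the obligate partner of BRCA1 in its ubiquitin ligase, measured 5.25, 3.68 and 4.00 CPM in p27 OE 1, 2 and 3, against 4.07, 2.995 and 3.62 CPM in EV control 1, 2 and 3. Within each number the p27 OE library was the higher, but the groups overlapped, and the log2 fold change of 0.27 ± 0.21 had an adjusted p of 0.839 by edgeR (0.311 with pairing). Brca1 averaged 8.07 ± 3.40 CPM in p27 OE and 8.09 ± 1.88 CPM in EV control (SD, n = 3 each), a log2 fold change of -0.00 with a 95% interval of -0.76 to 0.75. The helicase gene Brip1 had a log2 fold change of -0.06 ± 0.38. The value was 0.00 ± 0.24 for Palb2, whose product bridges BRCA1 and BRCA2, and -0.02 ± 0.32 for Brca2, whose product acts at the resected ends of breaks.

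The genes of strand exchange had a median log2 fold change of 0.02, with 2 of 4 above 0. Xrcc2, a gene of homologous recombination, measured 7.14, 5.50 and 6.28 CPM in p27 OE 1, 2 and 3, against 8.33, 6.89 and 5.69 CPM in EV control 1, 2 and 3. The p27 OE library was the lower in the pairs numbered 1 and 2 and the higher in the pair numbered 3, and the log2 fold change was -0.14 ± 0.19 (adjusted p 0.933 by edgeR). Rad51c, also a gene of homologous recombination, had a log2 fold change of -0.01 ± 0.27. Rad51ap1, which encodes a protein that aids strand invasion, had one of 0.06 ± 0.30, and Rad54l, which encodes a DNA translocase of homologous recombination, one of 0.17 ± 0.34.

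**Figure D2:**
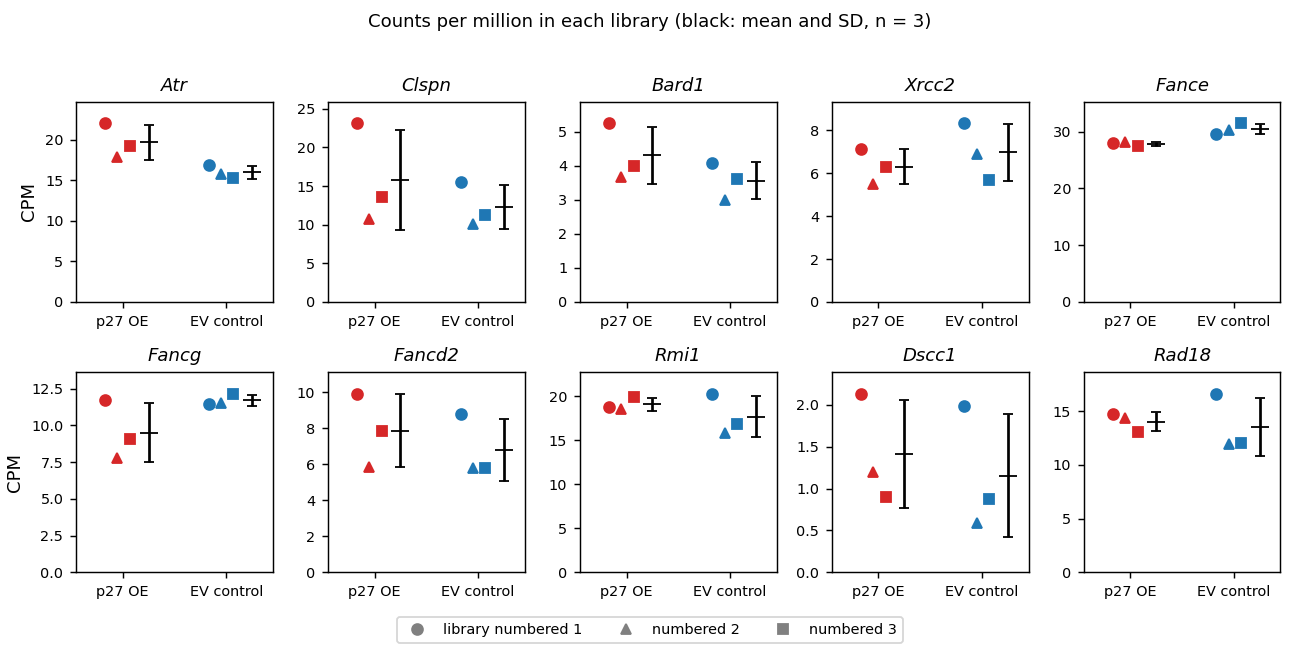
CPM (vertical axis, from 0) in each library for the 10 genes given in full, p27 OE in red and EV control in blue, with symbols for the library number and the group mean and SD in black (n = 3). The groups are apart in the Atr and Fance panels; in most of the others the circles, the libraries numbered 1, are the highest points of both groups.

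The Fanconi anaemia core complex, the ubiquitin ligase of the crosslink pathway, includes Fancg, the member with the lowest fold change. Of the 4 core genes, 1 was above 0, and their median log2 fold change was -0.11. Fance measured 27.9, 28.2 and 27.5 CPM in p27 OE 1, 2 and 3, against 29.7, 30.2 and 31.5 CPM in EV control 1, 2 and 3. All 3 p27 OE libraries lay below all 3 EV control libraries, by a narrow margin. Its log2 fold change of -0.13 ± 0.07 had an adjusted p of 0.743 without pairing and 0.291 with pairing (edgeR). Fancg measured 11.7, 7.75 and 9.07 CPM in p27 OE 1, 2 and 3, against 11.5, 11.5 and 12.2 CPM in EV control 1, 2 and 3. The EV control libraries were close to each other, and p27 OE 1 lay within their range while p27 OE 2 and 3 lay below it. The log2 fold change was -0.30 ± 0.16 (adjusted p 0.745 by edgeR), and -0.31 ± 0.12 with pairing (adjusted p 0.138). Without the libraries numbered 1, Fancg was called lower, at -0.50 ± 0.12, with an adjusted p of 0.0260 unpaired and 0.0124 paired (edgeR). Of 14036 genes tested, these fits called 1339 unpaired (650 lower) and 1741 paired (848 lower), and 1 of the 31 members in each. Fanca, whose values are given in full although chosen after they were seen, measured 15.6, 7.57 and 10.5 CPM in p27 OE 1, 2 and 3, against 11.5, 9.07 and 7.25 CPM in EV control 1, 2 and 3. The groups overlapped, and the log2 fold change of 0.28 ± 0.29 became -0.04 without p27 OE 1. Paired and with both libraries numbered 2 left out, it was 0.49 and was called (adjusted p 0.00875 by edgeR). This drops the pair in which p27 OE was the lower, and the fit called 928 of 14319 genes (503 higher). Unpaired, the same 4 libraries gave an adjusted p of 0.9996, and in paired fits dropping the libraries numbered 1 gave 0.15 (adjusted p 0.673) and dropping those numbered 3 gave 0.12 (adjusted p 0.817). Exons of Fanca share 552 bases, 8.62% of its length, with Zfp276 on the opposite strand, and the library kit does not mark strand. Fancb, on the X chromosome, had a log2 fold change of -0.09 ± 0.34.

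Both substrates of that ligase had a log2 fold change above 0. Fancd2 measured 9.93, 5.87 and 7.85 CPM in p27 OE 1, 2 and 3, against 8.78, 5.79 and 5.81 CPM in EV control 1, 2 and 3. The p27 OE library was the higher in each pair, and the log2 fold change was 0.21 ± 0.25 (adjusted p 0.923 by edgeR, 0.321 with pairing). Fanci, its partner in the clamp, had a log2 fold change of 0.10 ± 0.24, and 13.4% of its exonic length overlaps Polg on the opposite strand, which measured 58.2 CPM.

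The 3 genes of end resection and of the complex that dissolves Holliday junctions had log2 fold changes above 0. Rmi1, a subunit gene of the dissolving complex, measured 18.8, 18.6 and 19.9 CPM in p27 OE 1, 2 and 3, against 20.3, 15.9 and 16.9 CPM in EV control 1, 2 and 3. The p27 OE libraries lay inside the EV control range, and the log2 fold change was 0.11 ± 0.12 (adjusted p 0.896 by edgeR). Its exons share 257 bases with Hnrnpk on the opposite strand, an abundant gene at 524 CPM. The helicase gene Blm varied little between libraries, at 12.1 ± 0.834 CPM in p27 OE and 11.7 ± 0.235 CPM in EV control (SD, n = 3 each). Exo1, the gene of a resection exonuclease, had a log2 fold change of 0.08 ± 0.40.

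Dscc1, which encodes a subunit of an alternative loader of the sliding clamp PCNA, was the least abundant member, with 21 to 107 counts per library. It measured 2.13, 1.20 and 0.901 CPM in p27 OE 1, 2 and 3, against 1.98, 0.593 and 0.881 CPM in EV control 1, 2 and 3. The libraries numbered 1 were the highest of both groups, and the log2 fold change of 0.28 had a 95% interval from -0.99 to 1.55 without pairing, which takes in a 2-fold higher level in p27 OE. Atad5, which encodes the protein that unloads PCNA, had a log2 fold change of 0.08 ± 0.19. Rad18, the gene of the ligase that marks PCNA for lesion bypass, measured 14.7, 14.3 and 13.0 CPM in p27 OE 1, 2 and 3, against 16.6, 11.9 and 12.1 CPM in EV control 1, 2 and 3. The groups overlapped, and the log2 fold change was 0.05 ± 0.15 (adjusted p 0.980 by edgeR). Msh6, a mismatch recognition gene, had one of -0.02 ± 0.12.

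Counts of direction were read beside those of all genes. The p27 OE libraries lay wholly above the EV control libraries for 1 member, Atr (6.61% of all genes), and wholly below for 1, Fance (8.27% of all genes). The p27 OE library was the higher in each of 3 numbered pairs for 8 members, Atr, Topbp1, Clspn, Bard1, Rad54l, Fancd2, Fanci and Dscc1, which is 25.8% against 21.8% of all genes. It was the lower in each pair for 1 member, Fance, which is 3.23% against 23.6% of all genes. The pairs differed from each other. In the pair numbered 1, p27 OE was higher for 23 of 31 members (74.2%, against 48.6% of all genes). It was higher for 12 members in the pair numbered 2 (38.7%, against 49.2%) and for 21 in the pair numbered 3 (67.7%, against 49.7%). The members' median log2 ratios in these pairs were 0.13, -0.09 and 0.14, against -0.007, -0.005 and -0.001 over all genes.

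The members also differed by library number. In both groups the library numbered 1 was the highest of its 3 for 24 of 31 members (77.4%, against 31.1% of all genes), and the exceptions were Atm, Chek1, Chek2, Fance, Fancg, Blm and Rmi1. The log2 ratio of the library numbered 1 over the other 2 had a median of 0.51 over the members in p27 OE and 0.47 in EV control. Averaged over the groups it had a median of 0.38, a range of -0.23 to 1.24, and a median of 0.01 over all genes. Timeless, Brip1, Rad51ap1, Rad54l, Fancb, Exo1 and Dscc1 were at least 1.5-fold higher in the library numbered 1 of both groups (22.6% of members, against 6.76% of all genes). For 27 of 31 members the size of this ratio exceeded that of the group's log2 fold change (87.1%, against 68.2% of all genes). These are descriptions with 1 library a group on one side, and no test was made of them.

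**Figure D3:**
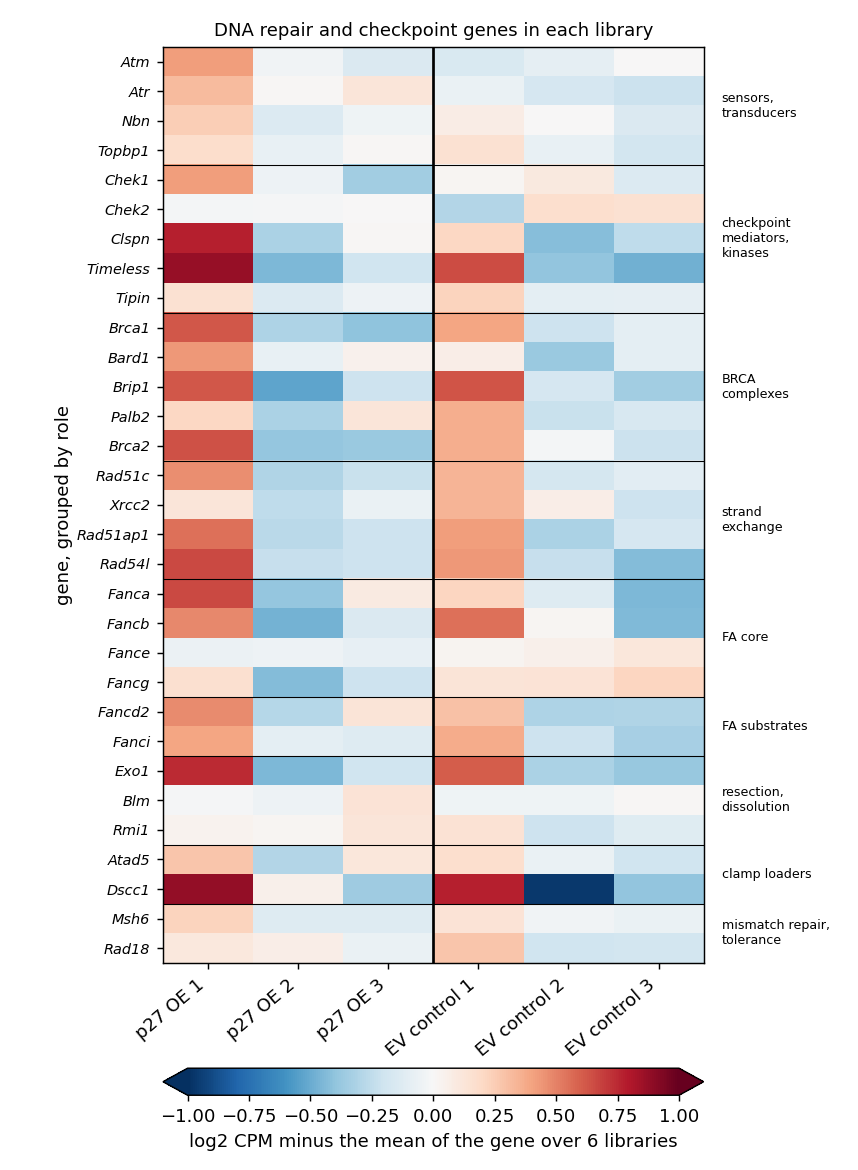
Log2 CPM of each gene in each library minus the gene's mean over the 6 libraries (colour, clipped at 1 on either side of 0), with p27 OE left of the vertical line and EV control right of it, and genes grouped by role. The columns of p27 OE 1 and EV control 1 are mostly red, that of p27 OE 2 mostly blue, and the rows of Fance and Blm are nearly white.

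Exo1, named here after its values were seen, shows this pattern: it measured 8.39, 3.65 and 4.35 CPM in p27 OE 1, 2 and 3, against 7.59, 4.01 and 3.84 CPM in EV control 1, 2 and 3. Within a number the groups lay within 0.18 of each other on the log2 scale, while the libraries numbered 1 were on average 2.02-fold above the others. The corresponding ratio was 2.21-fold for Timeless and 2.37-fold for Dscc1. Summed over the 31 genes, the level was 516, 383 and 407 CPM in p27 OE 1, 2 and 3, against 474, 394 and 385 CPM in EV control 1, 2 and 3. The 42 tested genes of S phase and proliferation followed the same order of libraries within each group, with sums of 1778, 1168 and 1256 CPM in p27 OE and 1547, 1251 and 1213 CPM in EV control. Their median log2 ratio of the libraries numbered 1 over the others was 0.53, and their median ratios in the 3 pairs were 0.18, -0.12 and 0.12. Mki67, a marker of cycling cells, measured 119, 63.3 and 69.7 CPM in p27 OE 1, 2 and 3, against 73.5, 61.9 and 62.8 CPM in EV control 1, 2 and 3, with a log2 fold change of 0.35 ± 0.24 (adjusted p 0.813 by edgeR). The part of these S phase genes, and of whatever sets the libraries numbered 1 apart, in the values of the repair genes was not tested.

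**Figure D4:**
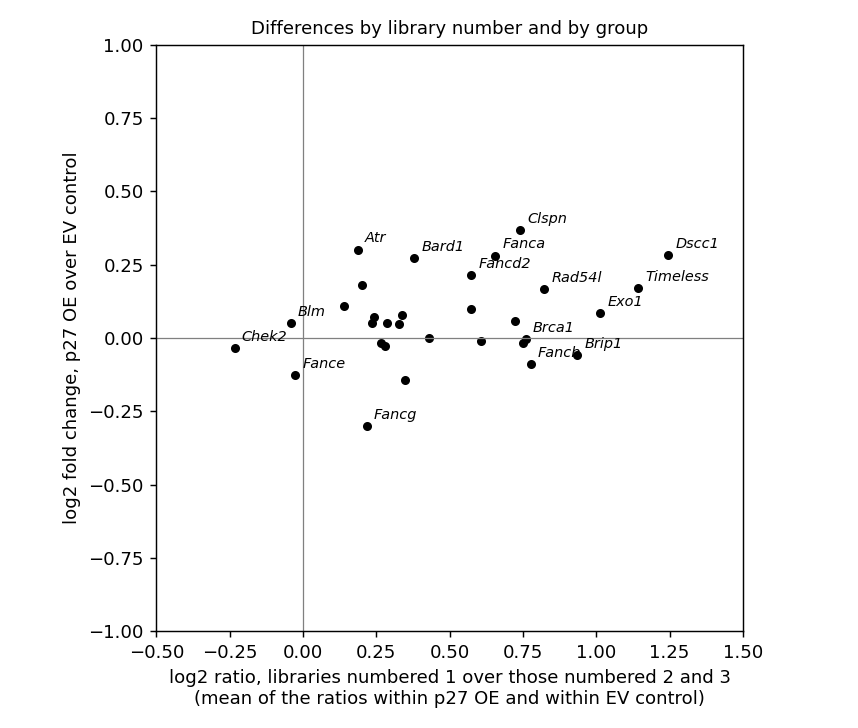
Each point is 1 of the 31 genes, placed by its log2 ratio of the libraries numbered 1 over those numbered 2 and 3 (horizontal axis, mean of both groups) and its log2 fold change of p27 OE over EV control (vertical axis). The points spread from -0.23 to 1.24 across and only from -0.30 to 0.37 upward, with Timeless, Exo1 and Dscc1 at the right and Atr, with a small horizontal value, near the top.

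Levels can be compared between genes only per length, here as CPM per kb of protein-coding exon. By that measure Topbp1 was the highest, at 16.3 ± 1.42 CPM per kb in p27 OE and 15.5 ± 1.88 CPM per kb in EV control, followed by Fance at 13.8 ± 0.165 CPM per kb in p27 OE and 15.04 ± 0.463 CPM per kb in EV control, and Tipin at 13.3 ± 1.37 CPM per kb in p27 OE and 13.5 ± 1.77 CPM per kb in EV control (SD, n = 3 each). The ranges of these 3 neighbours overlap. Over all 6 libraries the mean was 8.33 CPM per kb for Msh6, 7.34 for Nbn, 6.61 for Chek2 and 5.07 for Rad18. The other members were below 4 CPM per kb, among them Atm at 2.26 and Atr at 2.17 CPM per kb. Brca2 at 0.605, Brip1 at 0.680, Exo1 at 0.681 and Bard1 at 0.696 CPM per kb were the lowest. Within the core complex, Fance stood at 14.4 CPM per kb, against 3.83 for Fancg, 1.60 for Fanca and 1.19 for Fancb.

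Promoter sequence was looked at because many of these genes are known targets of E2F, the factor family that drives S phase transcription. RefSeq windows (GRCm38.p6) of the 250 bases before a start were matched for 25 of 31 members, some with more than 1 start, and Nbn, Tipin, Xrcc2, Fancd2, Exo1 and Dscc1 had no entry. An E2F-type stretch was taken as any of TTTCCCGC, TTTGGCGC, TTTCGCGC and TTTGCCGC on either strand, and it was found in a window of 5 of 25 members (20.0%), against 398 of 10476 tested genes (3.80%) and 1.86% of all windows in the table. The stretches are shown 5′ to 3′ on the gene's strand, with the matching letters in capitals:

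Bard1, chr1:71103148-71103207, minus strand: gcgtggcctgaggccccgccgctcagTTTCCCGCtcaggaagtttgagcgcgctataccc
Brca2, chr5:150522427-150522486, plus strand: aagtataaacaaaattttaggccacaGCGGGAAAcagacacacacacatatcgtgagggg
Chek2, chr5:110839805-110839864, plus strand: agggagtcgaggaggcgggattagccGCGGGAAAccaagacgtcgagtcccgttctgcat
Fancg, chr4:43010335-43010364, minus strand: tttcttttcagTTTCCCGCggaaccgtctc
Topbp1, chr9:103305187-103305216, plus strand: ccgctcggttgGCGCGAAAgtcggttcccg

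Between the letters and the RefSeq start lie 201 bases in Bard1, 160 in Brca2, 144 in Chek2, 44 in Fancg and 121 in Topbp1. These starts differ from those of GENCODE M21 for some genes. The Fancg letters lie inside the gene as GENCODE gives it, and the stretches of Fancg and Topbp1 touch an annotated exon. The windows of Timeless, Chek1 and Fanci, among others, lie wholly inside the GENCODE gene. The 5 genes with these letters had a median log2 ratio of the libraries numbered 1 over the others of 0.24, ranging from -0.23 for Chek2 to 0.75 for Brca2, and the 20 without them one of 0.50. Their median log2 fold changes of p27 OE over EV control were -0.02 and 0.05. The letters CCAAT were present in a window of 13 of 25 members (52.0%, against 40.2% of tested genes), and TTTGAA or TTTAAA, as found in cell cycle homology regions, in 1 of 25 (4.0%, against 20.5%). A match is a run of letters, not a site shown to be bound.

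The other genes of DNA repair and checkpoint pathways were not called without pairing either. Of 136 listed genes outside the 31, 131 were tested, 0 were called by edgeR, DESeq2 or limma-voom, and 3 had an unadjusted p under 0.05, with a median log2 fold change of -0.02. With pairing, 3 were called (2.29%, against 7.43% of all genes), and 0 when both libraries numbered 3 were left out. Recql, a helicase gene of the same family as Blm, rose: it measured 25.8, 19.5 and 20.6 CPM in p27 OE 1, 2 and 3, against 21.1, 16.9 and 14.5 CPM in EV control 1, 2 and 3, with a paired log2 fold change of 0.34 ± 0.08 (adjusted p 0.0293 by edgeR; 0.737 without pairing). Ercc6, a gene of transcription-coupled nucleotide excision repair, also rose, by a paired log2 fold change of 0.34 ± 0.07 (adjusted p 0.0166; 0.677 without pairing), and its 24.2, 26.7 and 27.3 CPM in p27 OE all lay above the 19.3, 20.2 and 22.4 CPM of EV control. Mad2l2, a gene of the translesion polymerase zeta complex, fell, at 11.1, 11.0 and 13.7 CPM in the p27 OE libraries, against 14.5, 15.7 and 16.9 CPM in EV control, with a paired log2 fold change of -0.40 ± 0.09 (adjusted p 0.0206; 0.683 without pairing). By pathway, the median unpaired log2 fold change was 0.03 for 30 other homologous recombination genes, 0.05 for 12 other Fanconi anaemia genes, -0.03 for 29 other checkpoint genes, -0.10 for 6 mismatch repair genes, 0.04 for 10 end-joining genes, -0.07 for 18 base excision genes, -0.05 for 14 nucleotide excision genes and -0.08 for 12 translesion genes. Summed over these other repair genes, the level was 4257, 4119 and 4184 CPM in p27 OE 1, 2 and 3, against 4207, 4125 and 4100 CPM in EV control 1, 2 and 3, and their median log2 ratio of the libraries numbered 1 over the others was 0.16, against 0.38 for the 31 members. Of the 42 S phase genes, 3 were called with pairing (7.14%, against 7.43% of all genes in either direction). All 3 were higher in p27 OE, a direction in which 3.8% of all genes were called. They were Tk1 (0.35 ± 0.08, adjusted p 0.0170 by edgeR, and 0.934 without pairing), Ccne1 (0.24 ± 0.06, adjusted p 0.0390, and 0.683 without pairing) and Ccne2 (0.81 ± 0.18, adjusted p 0.0152, and 0.772 without pairing). Tk1 encodes a salvage kinase for thymidine, and Ccne1 and Ccne2 encode the E-type cyclins, on whose kinase partner p27 acts. Of 20 p53 target genes, 1 was called higher and 1 lower with pairing (10%, against 7.43% of all genes), and their median unpaired log2 fold change was 0.01.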

How the data were processed

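Per the submitters' processing notes, reads were processed with TopHat2 2.0.14, Bowtie2 2.2.6 and featureCounts 1.4.6 (Subread) on mm10; the annotation, strand setting and treatment of multi-mapping reads were not given in the sources used here. Per the labels' protocols, RNA was purified on columns and libraries were made with a TruSeq kit that keeps no strand. The deposited values are raw read counts per gene made by the authors. All 6 columns matched the labels, and every row had a gene name.

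Groups were compared with edgeR 4.0.16 (R 4.3.3): TMM scaling, filterByExpr (minimum count 10, minimum total 15), a robust two-sided quasi-likelihood F test without pairing, and Benjamini-Hochberg adjustment over 14090 genes, with 0.05 as the threshold. CPM use TMM-scaled library sizes. Alternatives were the replicate number as a block, other scalings and filters, DESeq2 1.42.0, limma-voom (limma 3.58.1) and leaving out libraries. The fits were tested on simulated data with the same dispersion for every gene. The simulated means kept the differences between library numbers that the block models, so the paired fit was favoured by design. Changed genes were drawn from all tested genes, so the rates are not those of the members. In these simulated data the unpaired fit called 0 of 50 genes changed 1.25-fold, 2 of 50 changed 1.5-fold and 22 of 50 changed 2-fold. The paired fit called 8, 44 and 46 of 50. Falsely called were 0 genes unpaired and 6 paired. The unpaired fit thus seldom called a simulated difference of 1.5-fold or less. Deviations of same-numbered libraries from their group means correlated at 0.77, 0.42 and 0.54, and the numbers were taken to pair the libraries. Unlike-numbered libraries correlated at 0.41 for p27 OE 2 with EV control 3 and at 0.39 for p27 OE 3 with EV control 2. These correlations set number 1 apart but hardly tell numbers 2 and 3 from each other. The single gene Xist did differ between them in both groups. It measured 9.57 and 5.93 CPM in p27 OE 2 and EV control 2, against 0.504 and 0.601 CPM in p27 OE 3 and EV control 3. The labels do not say what a number marks. Paired values stand beside a result where they change its call or are set beside it for comparison.

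The members and the lists of other genes were chosen with earlier results of these data known. All 31 members are named; full values per library are given for the member with the smallest unadjusted p in each role, the 5 smallest overall and those called with pairing, and others are said to be chosen later. Of the other repair lists and the S phase list, genes called in either fit are named, and Mki67. Lengths and overlaps come from GENCODE M21 (GRCm38, the assembly of mm10), protein-coding basic transcripts. Intervals cover the spread between libraries.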

Additional observations from a re-analysis of the deposited data

How the results depend on the processing

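Of the 31 genes, 1 was called with the replicate block, 1 with the block and RLE scaling, 1 without the libraries numbered 1 with the block and 1 without them and no block, and 3 without those numbered 2 with the block; all other alternatives called 0. With all 6 libraries, pairing by the block changed no member's call but that of Atr. Without the libraries numbered 2, the block called Atr, Clspn and Fanca, and the unpaired fit of the same libraries called 0 members. The adjusted p of Atr over the 23 alternatives ranged from 0.0245 to 0.9999 (log2 fold change 0.21 to 0.37). In paired fits of all 6 libraries it was 0.0580 with upper-quartile scaling, 0.0940 with DESeq2 and 0.0541 with limma-voom. Over all genes, 0 were called without pairing, 1 without a filter on low counts, 89 by DESeq2 and 0 to 1 without any 1 library. The block called 1047 (535 higher in p27 OE, 512 lower), 1042 with RLE scaling, 1219 with upper-quartile scaling (483 higher, 736 lower), 830 with DESeq2 and 829 with limma-voom; without the libraries of numbers 1, 2 and 3 it called 1741, 928 and 330, and leaving out number 1 without the block called 1339. Of the other repair genes, 3 were called with the block under every scaling and tool, 4 with the block without number 1, 3 without number 2, 0 without number 3, and 3 without number 1 and no block. The unpaired fits that drop a number were chosen after seeing the data. The causes of these shifts were not tested. Of 713 values of single genes, 607 kept direction and call, 99 below the threshold in both fits changed sign and 7 gained a call; 24 members changed sign at least once. The members' median log2 fold change ranged from -0.11 without p27 OE 1 to 0.21 without EV control 1. Dscc1, with as few as 21 counts in a library, had the lowest depth of the members.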
